A study of Mus musculus with 6 samples.

Results

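The genes of glycolysis, of lactate handling and of the hypoxia response were followed in 2 captured regions of the mouse incisor. The set held 36 genes, chosen by symbol, and all 36 were among the 23718 genes of the deposited table. They comprised glucose uptake and the hexokinases, the steps from glucose 6-phosphate to pyruvate, lactate dehydrogenase and the monocarboxylate transporters, pyruvate dehydrogenase with its kinases, the enzymes that set fructose 2,6-bisphosphate, and the hypoxia-inducible factor (HIF) subunits with some of their target genes. Of the 36, 33 reached a mean of at least 1 over the 6 libraries and were tested. Aldoc, Egln3 and Ankrd37 were below it and are described by their values alone.

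The mouse incisor grows throughout life from mesenchymal stem cells (MSCs) at its proximal end, whose dividing progeny are called transit amplifying cells (TACs). The labels give the strain as C57BL/6, whereas the methods of the study speak of a mixed background. The mice of both groups were 1 month old and carried a tamoxifen-inducible Cre with a tdTomato reporter. The 3 MSC samples were regions of Gli1+ cells from Gli1-CreER;tdT mice, and the 3 TAC samples were regions of Axin2+ cells from Axin2-CreER;tdT mice, cut out of sections by laser capture the day after tamoxifen. The region and the Cre driver change together, so their parts in a difference cannot be told apart. A captured region can hold other cells beside the labelled ones, and in such samples fewer cells of a type and less RNA per cell cannot be told apart. The methods give 3 mice per group, and the labels number the samples 1 to 3 in each group but do not tie a sample to 1 animal, so p-values measure the spread between these samples.

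Glycolysis splits glucose into pyruvate in the cytosol and yields ATP without oxygen. Lactate dehydrogenase can then reduce pyruvate to lactate, which leaves the cell through monocarboxylate transporters, whereas pyruvate dehydrogenase carries pyruvate into the tricarboxylic acid cycle and is switched off by the pyruvate dehydrogenase kinases. HIF joins the hypoxia genes to glycolysis: prolyl hydroxylases mark its alpha subunits for destruction when oxygen is present, and in low oxygen the alpha subunits accumulate, pair with ARNT and bind DNA at a short core sequence in many glycolytic genes. That control acts on the protein, so the RNA of an alpha subunit is not a measure of HIF activity.

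Replicate 3 stood apart from replicates 1 and 2 in both groups, and neither the labels nor the methods name a reason. The 4 libraries numbered 1 or 2 held 20203159 to 25567244 estimated reads each, and the third MSC and TAC libraries held 59793645 and 108156380. Mitochondrial ribosomal RNA made up 8.28% to 9.07% of the former 4 and 0.112% to 0.236% of the latter pair. Genes without a read were 42.6% of those listed in MSC replicate 3, 27.8% in TAC replicate 3 and 6.38% to 7.88% elsewhere. The genes that mark the labelled cells overlapped between the groups and were not called. Gli1 was at 256, 245 and 422 in MSC replicates 1 to 3 and at 153, 141 and 396 in TAC, lower in TAC within each number (log2 differences of -0.74, -0.79 and -0.09), and limma called it with replicates 1 and 2 only (adjusted p = 6.6e-06). Axin2 was at 58.3, 48.0 and 12.01 in MSC and at 56.8, 63.9 and 34.0 in TAC (-0.04, 0.41 and 1.43). The summed value of 9 proliferation genes was 160 to 233 in MSC and 377 to 1083 in TAC. Mki67 had the highest mean of them, and Cdk1 alone was called by limma (adjusted p = 0.039). With the replicate number added to the fit as a block, limma also called Mki67 (adjusted p = 0.044), Birc5 (0.049) and Mcm2 (0.049). That fit called 1.49% of all genes tested. Of 8 dental mesenchyme markers, 1 had no read in MSC replicate 3, where 3 of 8 odontoblast markers and 4 of 9 listed dental epithelium markers also had none. Col1a1, Dspp and Amelx had the highest means of these 3 lists.

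Values are the deposited normalized values, a read number scaled per library. Gene length is not divided out, so they compare libraries for 1 gene and not genes with each other. Differences are on the log2(value + 1) scale, TAC minus MSC, from limma fitted to all 15391 genes with a mean of at least 1, with Benjamini-Hochberg adjustment over all of them, 3 samples per group. A gene was called at an adjusted p under 0.05. That fit, the main fit below, had no term for the replicate number, and calls come from it unless another fit is named.

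One of the 33 genes tested was called, Epas1, which was higher in MSC. This is 3.03% of the set, beside 0.422% of all genes tested. Over all genes limma called 59 higher in MSC, or 0.383%, and 6 higher in TAC. At an unadjusted p under 0.05 there were 4 genes, or 12.1%, beside 11.9% of all genes tested, so this count was near the background. These were Pgk1 and Pgam1, with higher values in TAC, and Eno2 and Epas1, with higher values in MSC. The 2 groups did not overlap for 7 of 33 genes, or 21.2%, beside 24.5% of all genes tested. Pgk1 and Pgam1 lay higher in TAC (12.3% of all genes did so without overlap), and Pfkp, Eno1, Pdk1, Pfkfb2 and Epas1 lay higher in MSC (12.2% of all genes). The median difference over the 33 genes was 0.16, against 0.03 over all genes tested. It was -0.07 with replicates 1 and 2 only, against -0.05 over all genes, and 0.35 in replicate 3, against 0.04.

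**Figure D1:**
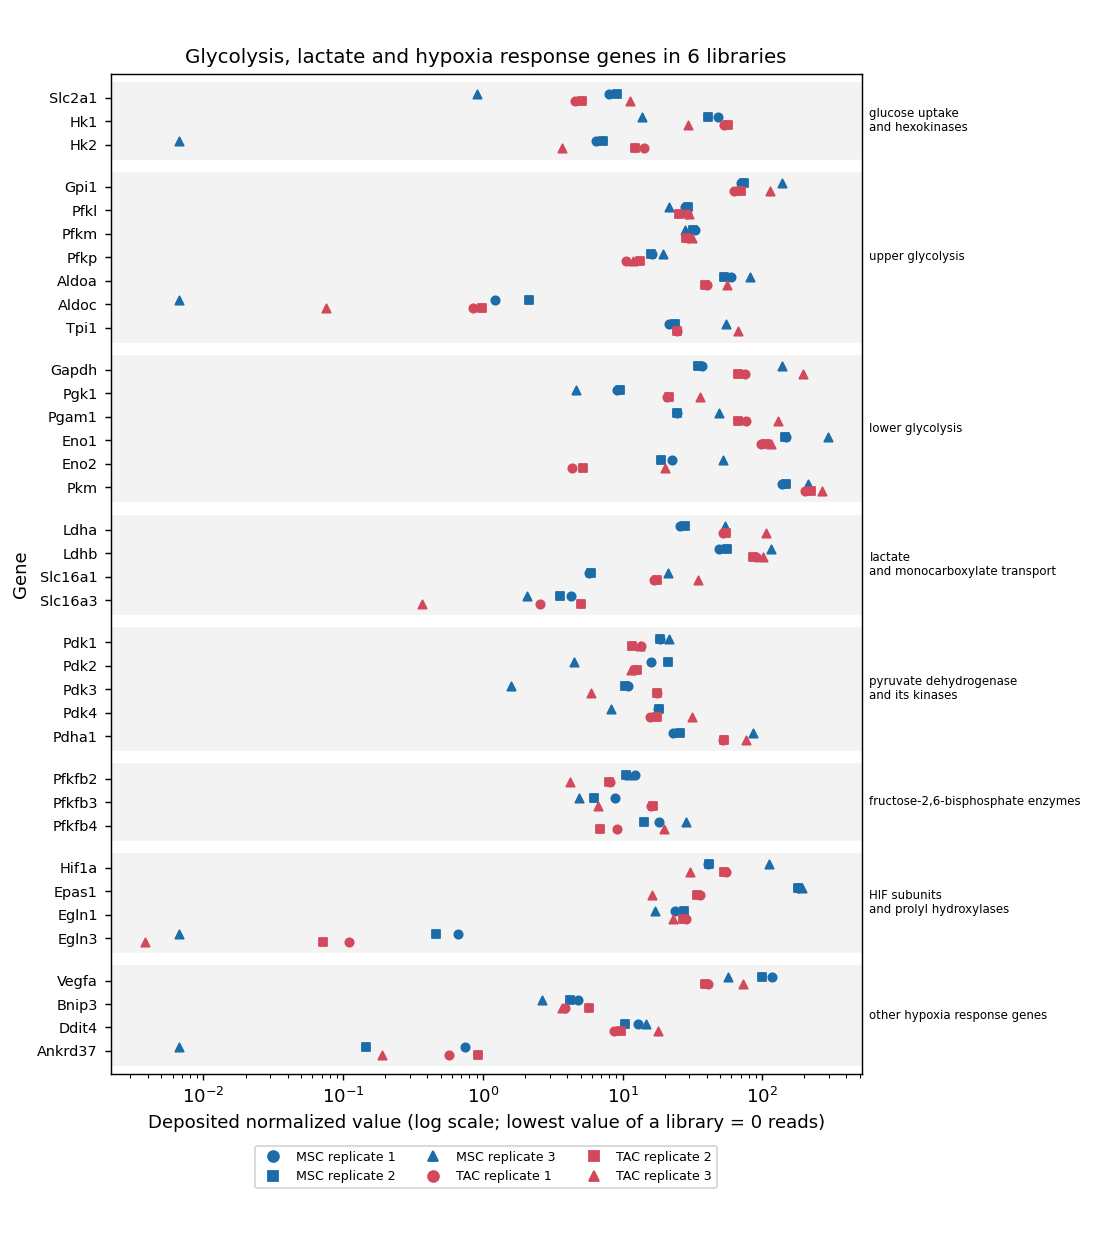
Deposited normalized value (x axis, log scale) of each of the 36 genes (y axis, grouped by role) in the 3 MSC libraries (blue) and the 3 TAC libraries (red), with 1 point per library and the marker shape giving the replicate number. Epas1 shows 2 separate sets of points, Pgk1 and Pgam1 are the 2 genes with all TAC points to the right, and in Hk2, Aldoc, Egln3 and Ankrd37 the triangle of MSC replicate 3 lies at the value that stands for no read.

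Replicate 3 differed from the others in this set and in the whole table. Between replicates 1 and 2 on the one hand and replicate 3 on the other, the direction of the difference was opposite for 10 of the 33 genes, or 30.3%, beside 38.8% of all genes tested. In a fit with an interaction of group with replicate 3 against replicates 1 and 2, 16 of the 33 genes passed an adjusted p of 0.05, or 48.5%, beside 57.2% of all genes tested. That fit takes its spread from replicates 1 and 2 alone, which lay close together, and assumes that the lone replicate 3 of each group varies as they do. With replicates 1 and 2 only, 22 of 33 genes were called (66.7%, beside 44.2% of all genes tested), 13 higher in TAC (20.0% of all genes tested were) and 9 higher in MSC (24.2% of all genes), among them all 6 genes of lower glycolysis. The direction was the same in each of the 3 numbered pairs for 20 of the 33 genes, or 60.6%, beside 51.0% of all genes tested.

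**Figure D2:**
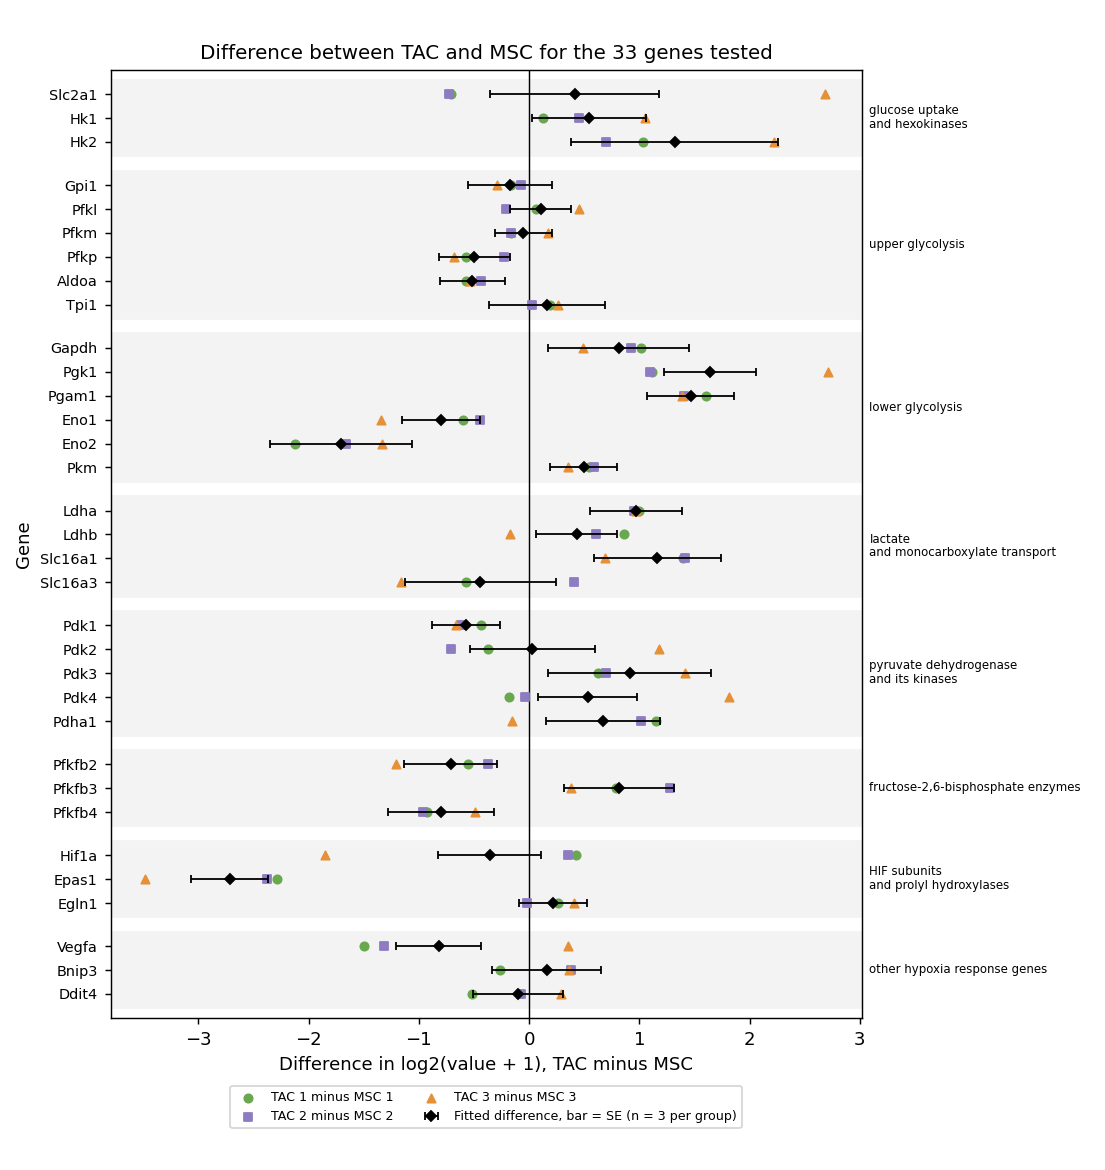
Difference in log2(value + 1), TAC minus MSC (x axis), for the 33 tested genes (y axis, grouped by role). Black diamonds with bars are the fitted difference and its SE (n = 3 per group) and coloured points are the difference within each replicate number. For Ldha, Pgam1, Pkm, Aldoa and Pdk1 the 3 coloured points lie together, whereas for Slc2a1, Pdk2, Pdk4, Hif1a and Vegfa the replicate 3 point lies on the other side of 0.

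None of the 3 genes of glucose uptake and phosphorylation was called. Slc2a1, which encodes the glucose transporter GLUT1, was at 8.05, 9.16 and 0.905 in MSC replicates 1, 2 and 3 and at 4.53, 5.13 and 11.3 in TAC. Its lowest and highest values were thus those of the 2 replicate 3 libraries, and its difference was -0.72 in replicates 1 and 2 and 2.69 in replicate 3. Hk1, the widely expressed hexokinase, was at 48.4, 41.2 and 13.7 in MSC and at 52.9, 56.7 and 29.5 in TAC, so TAC was higher within each replicate number while the groups overlapped (0.54, SE 0.52). Hk2, the hexokinase that is inducible in many tissues, was at 6.45 and 7.22 in MSC replicates 1 and 2, had no read in MSC replicate 3, and was at 14.3, 12.3 and 3.70 in TAC. A gene with 3 reads would have been listed at 0.0266 in MSC replicate 3, the limit that a count of 0 allows there for counting error alone. That library entered the fit with its deposited value, and the difference was 1.32 (SE 0.94, limma adjusted p = 0.65), with overlap between the groups.

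The 7 genes of upper glycolysis gave no call, and their median difference was -0.11 over the 6 tested (-0.14 with replicates 1 and 2 only and -0.06 in replicate 3). Gpi1, glucose 6-phosphate isomerase, was at 70.6, 74.0 and 139 in MSC and at 63.0, 70.4 and 113 in TAC. The 3 phosphofructokinase genes, which encode the liver, muscle and platelet types of the enzyme for the committed step, included the 2 with the smallest SE of the 33 genes tested, Pfkm and Pfkl. Pfkl was at 27.8, 29.2 and 21.4 in MSC and at 29.1, 25.2 and 29.7 in TAC, and Pfkm was at 32.9, 32.02 and 27.9 in MSC and at 29.3, 28.4 and 31.6 in TAC, with fitted differences of 0.10 (SE 0.28) and -0.05 (SE 0.26). Pfkp was at 16.1, 15.9 and 19.6 in MSC and at 10.5, 13.4 and 11.8 in TAC. All 3 Pfkp values in MSC exceeded all 3 in TAC, but the difference of -0.50 (SE 0.32) was not called (limma adjusted p = 0.61). Pfkp shares 748 bases with Pitrm1 on the other strand, and whether reads were counted by strand is not given in the sources used here.

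Aldoa, the aldolase of most tissues, was at 59.9, 52.9 and 81.4 in MSC and at 39.9, 38.9 and 55.9 in TAC. MSC was higher within each replicate number by much the same amount, with differences of -0.57, -0.44 and -0.53, but the groups overlapped and the adjusted p was 0.56 in limma. Aldoc, the isoform known from brain, was low throughout, at 1.23, 2.14 and no read in MSC and at 0.854, 0.983 and 0.0758 in TAC. Tpi1, triose phosphate isomerase, was at 21.4, 23.8 and 55.4 in MSC and at 24.6, 24.4 and 66.5 in TAC. TAC was higher within each number by 0.19, 0.03 and 0.26, and the groups overlapped because MSC replicate 3 lay above TAC replicates 1 and 2.

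The 6 genes of lower glycolysis held the largest differences among the enzymes, and they did not point the same way. Pgk1, Pgam1, Gapdh and Pkm had higher values in TAC within each replicate number, and both enolase genes had higher values in MSC. None was called. Pgk1 encodes phosphoglycerate kinase, the first of the ATP-yielding steps, and lies on chromosome X at 106187100 to 106203699 on the plus strand of mm10. It was at 9.14, 9.504 and 4.63 in MSC and at 20.9, 21.5 and 35.8 in TAC. Every TAC library lay above every MSC library, with group means of 7.76 ± 2.71 and 26.1 ± 8.46 (SD, n = 3) and a difference of 1.64 (SE 0.42, unadjusted p = 0.0054, limma adjusted p = 0.18). The difference was 1.11 in replicates 1 and 2 and 2.71 in replicate 3.

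Pgam1, phosphoglycerate mutase, lies on chromosome 19 at 41911871 to 41918664 on the plus strand. It was at 24.5, 24.5 and 48.7 in MSC and at 76.3, 66.8 and 129 in TAC, again without overlap. The means were 32.6 ± 14.0 and 90.9 ± 33.7 (SD, n = 3), and the differences within replicate numbers 1, 2 and 3 were close together at 1.602, 1.41 and 1.39. The fitted difference was 1.47 (SE 0.40, limma adjusted p = 0.19). With the replicate number as a block it was called (limma adjusted p = 0.044), as were 1.49% of all genes. Over all alternatives the limma adjusted p ran from 2.7e-06 (replicates 1 and 2 only) to 0.59.

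Gapdh, which oxidises glyceraldehyde 3-phosphate and is often used as a reference gene, was at 36.8, 34.9 and 139 in MSC and at 75.6, 67.1 and 196 in TAC. It was far from constant here. Within replicate numbers TAC was higher by 1.02, 0.93 and 0.49, while the replicate 3 libraries exceeded the others of their group by more than that, and the fitted difference was 0.81 (SE 0.64, limma adjusted p = 0.69). Gapdh has many pseudogene copies in the genome. Of its 75-base stretches, 55.5% occur in other annotated genes. Listed genes that held at least 1% of these stretches were taken as copies, a protein-coding one only if at least 10% of its own stretches were shared, which left out Peli2. The 44 copies of Gapdh summed to 19.4, 23.8 and 22.8 in MSC and to 21.3, 22.4 and 22.04 in TAC. They thus amounted to 52.6%, 68.3% and 16.4% of the Gapdh value in MSC replicates 1 to 3, and to 28.2%, 33.3% and 11.3% in TAC. With the copies added the difference was 0.60 (SE 0.53).

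Other members share sequence with copies as well, and how reads with several places were counted is not given in the sources used here. The shared part was 67.5% of the 75-base stretches for Pgk1, 44.3% for Eno1, 43.7% for Bnip3 and 40.6% for Pgam1, and it was 0.0% for Epas1 and Eno2. Adding listed copies moved Pgk1 to 1.72, Pgam1 to 1.49 and Eno1 to -0.71, and moved none of the 10 members that have listed copies across the threshold.

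Eno1, the enolase of most tissues, was at 148, 145 and 294 in MSC and at 97.5, 106 and 115 in TAC. The groups did not overlap, and TAC was the less variable one, with 196 ± 85.2 in MSC and 106 ± 8.75 in TAC (SD, n = 3). The difference was -0.80 (SE 0.35, limma adjusted p = 0.44), with -0.52 between the first 2 libraries of each group and -1.35 between the third ones. Eno2, the enolase known from neurons and often listed among hypoxia response genes, lies on chromosome 6 at 124760053 to 124769673 on the minus strand. It was at 22.5, 18.7 and 52.3 in MSC and at 4.38, 5.23 and 20.1 in TAC. MSC was higher within each number by 2.13, 1.66 and 1.33 on the log2 scale, but TAC replicate 3 lay above MSC replicate 2, and the fitted difference of -1.71 (SE 0.64, unadjusted p = 0.031) was not called in limma (adjusted p = 0.35). Pkm, pyruvate kinase, was at 139, 149 and 211 in MSC and at 203, 224 and 269 in TAC (0.50, SE 0.30), so the step after enolase again had its higher values in TAC.

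All 9 of the proliferation genes had higher fitted values in TAC too, 1 of them called in the main fit, with a median difference of 1.89. No proliferation gene was without reads in any library. The 9 dental epithelium markers tested also had higher fitted values in TAC (median 1.05, and 0.63 with replicates 1 and 2 only). Of these, 5 lay higher in TAC without overlap, beside 12.3% of all genes tested, and none was called. With replicates 1 and 2 only, Amelx (-0.21) and Enam (-0.07) were lower in TAC and the others tested were higher. Their summed value in replicates 1, 2 and 3 was 3659, 3596 and 299.7 in MSC and 3268, 3341 and 2157 in TAC. The 7 odontoblast markers tested had a median of 0.86 (0.16 with replicates 1 and 2 only), all positive, none without overlap and none called. With replicates 1 and 2 only, Dspp (-0.14), Ibsp (-0.43) and Phex (-0.15) were lower in TAC, and Dmp1, Bglap, Bglap2 and Sp7 were higher. Their sums in replicates 1, 2 and 3 were 5288, 5154 and 932 in MSC and 4825, 4800.1 and 5030.1 in TAC. The part of dividing cells, epithelium and odontoblasts in the higher TAC values of Pgk1, Pgam1, Ldha and Pkm was not tested.

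The sequences upstream of 4 of these genes are shown because they hold the core letters of HIF binding and because the genes had their values on opposite sides of the comparison. They are the 250 bases before the RefSeq start site nearest the deposited gene start, on GRCm38.p6 (the mm10 assembly), all on the plus strand. Capitals mark ACGTG or GCGTG read on either strand, so that CACGT and CACGC are the same letters on the minus strand, and CACGTG holds ACGTG on both. The windows are chrX:106186850-106187099 for Pgk1, chr19:41911621-41911870 for Pgam1, chr7:46845554-46845803 for Ldha and chr4:150236458-150236707 for Eno1. The Ldha start site used lies 4329 bases inside the start given in the table.
Pgk1: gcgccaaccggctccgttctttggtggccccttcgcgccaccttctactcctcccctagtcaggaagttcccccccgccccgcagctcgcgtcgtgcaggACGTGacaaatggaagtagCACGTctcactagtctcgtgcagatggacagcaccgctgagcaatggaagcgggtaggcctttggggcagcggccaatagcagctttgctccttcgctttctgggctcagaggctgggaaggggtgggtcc
Pgam1: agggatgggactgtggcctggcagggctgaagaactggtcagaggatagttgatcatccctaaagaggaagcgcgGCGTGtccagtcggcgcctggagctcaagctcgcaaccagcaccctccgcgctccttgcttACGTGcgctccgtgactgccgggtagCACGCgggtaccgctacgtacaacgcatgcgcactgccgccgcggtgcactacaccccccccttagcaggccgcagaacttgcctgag
Ldha: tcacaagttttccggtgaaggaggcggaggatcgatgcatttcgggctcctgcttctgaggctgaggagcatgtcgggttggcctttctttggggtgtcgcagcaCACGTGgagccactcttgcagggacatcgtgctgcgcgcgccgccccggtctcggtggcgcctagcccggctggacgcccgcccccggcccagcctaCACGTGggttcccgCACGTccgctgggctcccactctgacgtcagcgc
Eno1: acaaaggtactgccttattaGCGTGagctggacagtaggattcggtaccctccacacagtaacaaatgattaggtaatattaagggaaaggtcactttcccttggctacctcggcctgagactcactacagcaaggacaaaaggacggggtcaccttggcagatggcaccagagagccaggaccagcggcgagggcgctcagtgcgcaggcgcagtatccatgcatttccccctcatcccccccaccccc

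The Pgk1 window holds the core in 2 places, Pgam1 in 3, Ldha in 3 (of which 2 are CACGTG) and Eno1 in 1. Of the 36 members, 35 had a window in the RefSeq table, and 28 of these (80.0%) held the core at least once, against 38.6% of all 32851 windows of the same length. Base composition differed as well, since the median GC content was 62.4% over the members' windows and 52.4% over all. The letters were present in members on both sides of the comparison and in members with fitted differences near 0, such as Pfkl and Pfkm. Pkm and Tpi1, higher in TAC within each number, held none, nor did Eno2, higher in MSC. Pfkp, higher in MSC without overlap, held the core in 3 places. The start site used lay far from the deposited gene start for Pfkfb2 (13205 bases), Aldoa (8661), Hif1a (6492) and Ankrd37 (5857) too. A match is a description of the letters and not of binding.

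Of the 4 genes of lactate and monocarboxylate transport none was called, and 3 had higher mean values in TAC. Ldha, the lactate dehydrogenase subunit that favours lactate formation, was at 25.7, 28.1 and 54.1 in MSC and at 52.2, 55.3 and 107 in TAC. Within replicate numbers TAC was higher by nearly the same amount each time, 0.99, 0.96 and 0.97, and the overlap came from MSC replicate 3, which lay above TAC replicate 1. The fitted difference was 0.97 (SE 0.42, unadjusted p = 0.051, limma adjusted p = 0.42). Ldhb, whose subunit favours the return of lactate to pyruvate, was at 49.2, 55.7 and 115 in MSC and at 90.1, 85.5 and 102 in TAC, so TAC was higher in replicates 1 and 2 (0.73) and not in replicate 3 (-0.17).

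Slc16a1, which encodes the monocarboxylate transporter MCT1, was at 5.73, 5.94 and 21.2 in MSC and at 16.7, 17.6 and 34.6 in TAC. TAC was higher within each replicate number, and the fitted difference of 1.17 (SE 0.57, limma adjusted p = 0.49) overlapped between the groups through MSC replicate 3. Slc16a3, which encodes the lactate exporter MCT4 and is a known HIF target, was low, at 4.29, 3.56 and 2.06 in MSC and at 2.56, 5.06 and 0.364 in TAC. It showed no order by group.

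The switch between pyruvate oxidation and lactate gave no call either. Pdha1, the alpha subunit of pyruvate dehydrogenase, was at 22.9, 25.8 and 85.3 in MSC and at 51.9, 53.3 and 76.5 in TAC, with a difference of 1.08 in replicates 1 and 2 and -0.15 in replicate 3. Pdk1, the pyruvate dehydrogenase kinase best known as a HIF target, was at 18.6, 18.6 and 21.6 in MSC and at 13.6, 11.7 and 13.3 in TAC. The 2 groups were narrow and did not overlap, with means of 19.6 ± 1.73 and 12.9 ± 0.97 (SD, n = 3), but the limma fit gave -0.57 (SE 0.31, adjusted p = 0.53).

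The other 3 kinases were not called either, and for each of them the replicate 3 libraries stood apart from the others in at least 1 group. Pdk2 was at 15.9, 21.2 and 4.52 in MSC and at 11.999, 12.6 and 11.5 in TAC, and Pdk4, known for its rise in fasting, was at 17.9, 18.1 and 8.21 in MSC and at 15.7, 17.6 and 31.4 in TAC. Both had lower values in TAC in replicates 1 and 2 and higher ones in replicate 3. Pdk3 was at 11.01, 10.4 and 1.598 in MSC and at 17.5, 17.6 and 5.93 in TAC, higher in TAC within each number by 0.62, 0.70 and 1.42.

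Fructose 2,6-bisphosphate is the strongest activator of phosphofructokinase, and the PFKFB enzymes make and remove it. Pfkfb3, the isoform with the highest kinase activity, had higher values in TAC, and the other two had higher values in MSC. Pfkfb3 was at 8.85, 6.26 and 4.89 in MSC and at 16.0, 16.6 and 6.66 in TAC. Pfkfb2 was at 12.4, 10.6 and 11.1 in MSC and at 8.12, 7.96 and 4.23 in TAC, without overlap, and it shares 1241 bases with Gm29427 on the same strand. Pfkfb4 was at 18.2, 14.3 and 28.2 in MSC and at 9.06, 6.86 and 19.8 in TAC, higher in MSC within each number. The fitted differences were 0.82 (SE 0.49), -0.71 (SE 0.42) and -0.80 (SE 0.48) for Pfkfb3, Pfkfb2 and Pfkfb4, and none was called.

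Epas1 was the gene of the set with the clearest difference. It encodes HIF2A, the HIF alpha subunit known from endothelium, pericytes and other cells around vessels, and lies on chromosome 17 at 86753907 to 86833410 on the plus strand, with no other annotated gene over its exons and no 75-base stretch shared with another gene. Epas1 was at 179, 181 and 193 in MSC replicates 1, 2 and 3 and at 36.04, 34.0 and 16.3 in TAC. All 3 MSC libraries lay above all 3 TAC libraries, and TAC replicate 3 was the lowest, with means of 184 ± 7.75 and 28.8 ± 10.8 (SD, n = 3), a 6.40-fold higher mean in MSC. The fitted difference was -2.71 (SE 0.35, unadjusted p = 8.8e-05, limma adjusted p = 0.039), with TAC lower in 3 of 3 numbers, by 2.28, 2.37 and 3.49 on the log2 scale.

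The Epas1 call depended on the samples in the fit. With 1 library left out the difference was between -2.91 and -2.36. The call was lost when MSC replicate 1 or 2 was left out (adjusted p = 0.23 in both fits), when TAC replicate 1 (0.15) or 2 (0.20) was, and under median-ratio scaling (0.050). In the 4 fits without a replicate 1 or 2 limma called 0 of the 15391 genes, with 1028 to 1367 at an unadjusted p under 0.05. Epas1 was still called without MSC replicate 3 (0.043) and without TAC replicate 3 (0.049).

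Vascular markers had higher values in MSC as well. Of 8 endothelial markers 7 had lower fitted values in TAC, none called, and the summed value was 219 to 333 in MSC and 119 to 126 in TAC, a mean 2.10 times higher in MSC. All 8 smooth muscle and pericyte markers had lower fitted values in TAC, 5 of them called, and their sum was 1016 to 1627 in MSC and 170 to 226 in TAC, a mean 5.92 times higher in MSC. Eng had the highest mean of the first list and Rgs5 of the second. No endothelial marker was without reads in any library, and 1 smooth muscle marker, Cnn1, had no read in TAC replicate 3. The macrophage sum was 80.7 to 203 in MSC and 44.8 to 130 in TAC, led by Lyz2, and that of Schwann cell and glia markers was 47.3 to 161 and 24.3 to 51.6, led by Pmp22, with 0 called in either list. The part of these cells in the Epas1 difference was not tested.

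Hif1a, the alpha subunit found in most cells, did not follow Epas1. It was at 40.9, 41.4 and 112 in MSC and at 55.3, 53.2 and 30.5 in TAC. TAC was higher in replicates 1 and 2 (0.39) and lower in replicate 3 (-1.85), and the fitted difference was -0.36 (SE 0.47, limma adjusted p = 0.83). Hif1a overlaps the antisense gene Gm15283 by 330 bases. Hif3a, another alpha subunit that can act as an inhibitor and that stands in the wider list and not among the 36, was at 48.3, 47.2 and 31.1 in MSC and at 2.89, 3.09 and 1.40 in TAC. It was called (-3.66, SE 0.41, limma adjusted p = 0.031) and lost its call in the same 4 fits with 1 library left out as Epas1 did, with adjusted p from 0.14 to 0.23.

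**Figure D3:**
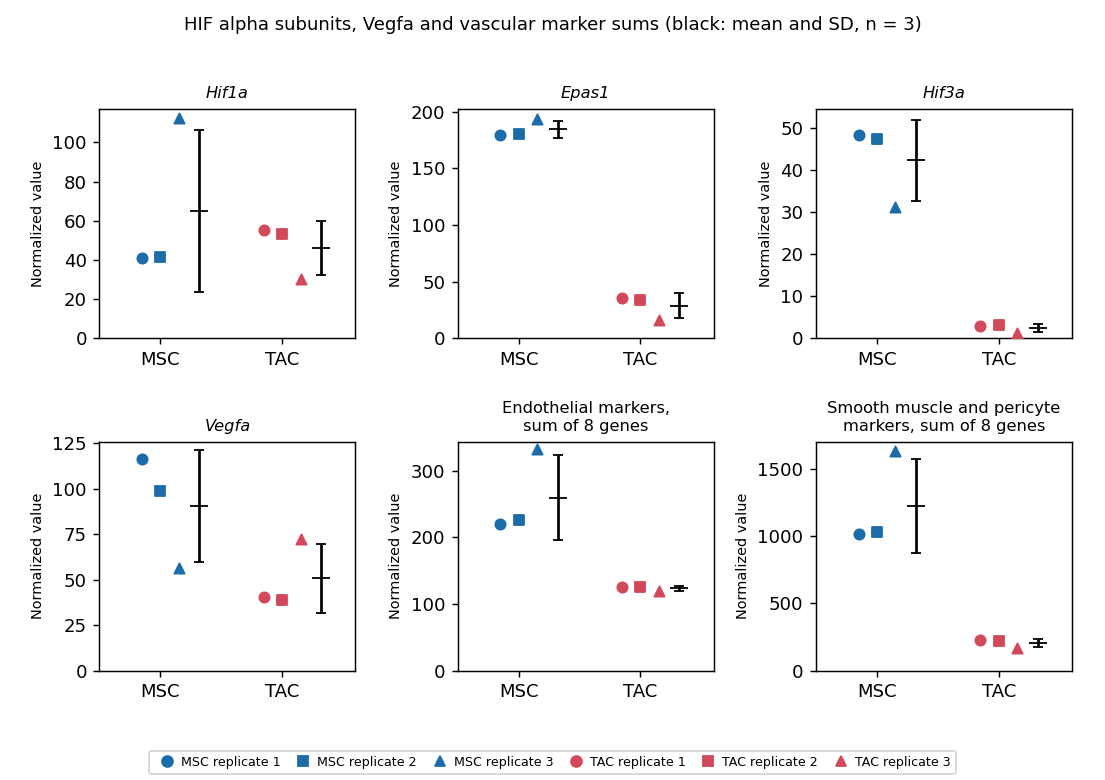
Deposited normalized value (y axis, linear from 0) of Hif1a, Epas1, Hif3a and Vegfa and the summed value of the endothelial and of the smooth muscle and pericyte markers, by group (x axis), with 1 point per library and the mean and SD in black (n = 3). In Epas1, Hif3a and both marker sums all MSC points lie above all TAC points, whereas Hif1a and Vegfa overlap.

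The prolyl hydroxylases were not called. Egln1, which encodes PHD2, the main oxygen-sensing enzyme of this family, was at 23.7, 27.3 and 17.0 in MSC and at 28.7, 26.9 and 22.9 in TAC (0.22, SE 0.31). Egln3, which encodes PHD3 and is itself a HIF target, was near the limit of detection, at 0.666, 0.464 and no read in MSC and at 0.109, 0.0719 and no read in TAC. The listed value for 3 reads was 0.0266 in MSC replicate 3 and 0.0152 in TAC replicate 3.

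The other hypoxia response genes gave no call and no common direction. Vegfa, the growth factor for blood vessels, was at 116, 99.0 and 56.5 in MSC and at 40.6, 39.1 and 72.5 in TAC. In replicates 1 and 2 it was lower in TAC by 1.41 on the log2 scale, and in replicate 3 the difference was 0.36, so the fitted -0.82 (SE 0.39, limma adjusted p = 0.47) joined opposite values. Bnip3, a mitophagy receptor, was at 4.80, 4.17 and 2.63 in MSC and at 3.84, 5.74 and 3.68 in TAC. Ddit4, an inhibitor of mTORC1 also called REDD1, was at 12.8, 10.4 and 14.6 in MSC and at 8.65, 9.78 and 18.1 in TAC. Both overlapped between the groups, with fitted differences of 0.16 (SE 0.49) and -0.10 (SE 0.41). Ankrd37, an ankyrin repeat gene known as a HIF target, was at 0.746, 0.145 and no read in MSC and at 0.569, 0.917 and 0.190 in TAC, too low to be tested.

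Within families, levels were compared per kilobase of exon (GENCODE release M21), which makes isoforms comparable inside a library. These shares are a description without a test. Pfkm held 47.5% to 49.5% of the phosphofructokinase total in all 6 libraries, and Pfkl held 29.3% to 39.0%. The Pfkp share was 16.9%, 16.6% and 23.3% in MSC and 12.2%, 16.1% and 12.96% in TAC, so the MSC libraries had the higher shares. Aldoa made up 96.6% to 99.99% of the aldolase total, and Hk1 81.1% to 99.96% of the hexokinase total. Eno2 held 10.5% to 13.9% of the enolase total in MSC, and 3.93% and 4.304% in TAC replicates 1 and 2 against 13.7% in TAC replicate 3. Ldhb exceeded Ldha per kilobase in every library, and the Ldha share was 24.5% to 26.4% in MSC and 28.5%, 30.8% and 42.0% in TAC.

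The order of the HIF alpha subunits differed between the libraries of the 2 groups. Per kilobase, Epas1 held 68.5%, 68.8% and 57.9% of the sum of Hif1a, Epas1 and Hif3a in MSC, and Hif1a held 15.8%, 16.0% and 34.1%. In TAC, Hif1a held 59.3%, 59.5% and 63.8% and Epas1 38.1%, 37.6% and 33.7%. The Epas1 share was above the Hif1a share in all 3 MSC libraries and below it in all 3 TAC libraries. Pfkfb4 had the largest share of the PFKFB total in MSC, 56.2%, 55.9% and 72.3%, and Pfkfb3 in TAC replicates 1 and 2, 40.7% and 45.9%, but not in TAC replicate 3 (15.6%). The pyruvate dehydrogenase kinases were mixed, each holding between 8.13% and 46.2%.

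**Figure D4:**
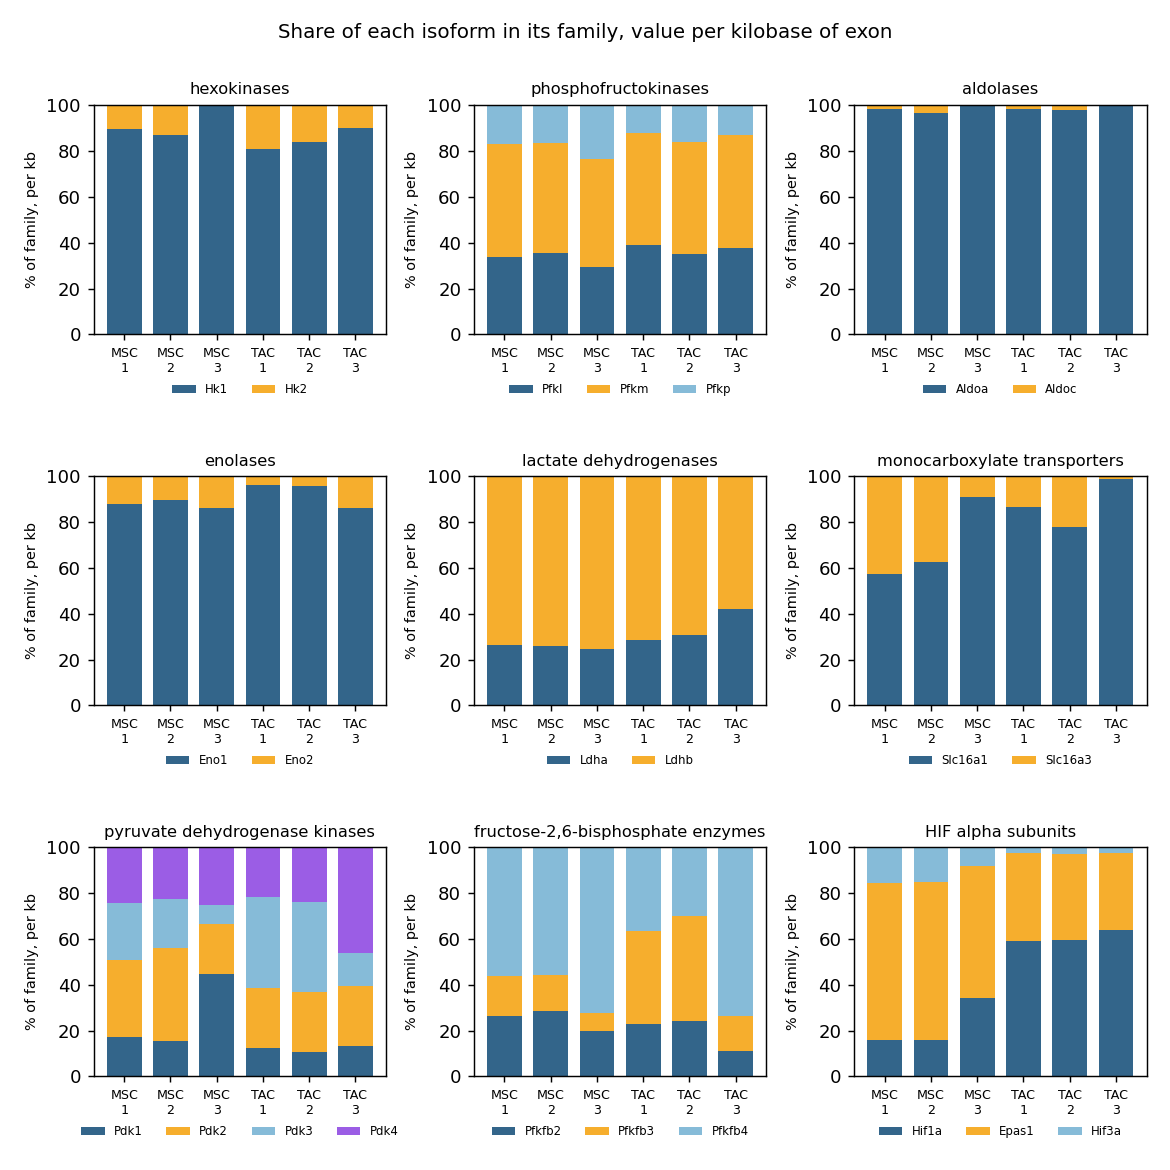
Share of each isoform in its family (y axis, % of the family's summed value per kilobase of exon) in each of the 6 libraries (x axis), for 9 families. The Pfkm share is 47.5% to 49.5% in all libraries, and in the HIF alpha panel Epas1 takes 57.9% to 68.8% in the MSC libraries and 33.7% to 38.1% in the TAC libraries.

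The other genes of these pathways were taken from 5 wider lists. Of the other glycolytic isoforms and regulators, 18 of 29 were tested and none was called, with 2 higher in TAC and 2 higher in MSC at an unadjusted p under 0.05 (5.42% and 6.43% of all genes tested). The 3 with the smallest p were Pck2, mitochondrial phosphoenolpyruvate carboxykinase (1.39, SE 0.35), the monocarboxylate transporter Slc16a7 (-1.82, SE 0.62) and the D-lactate dehydrogenase Ldhd (-2.49, SE 0.89). Ldhd was at 6.26, 6.69 and 65.7 in MSC and at 2.08, 1.98 and 1.31 in TAC, with its highest value in MSC replicate 3 and a difference of -1.30 in replicates 1 and 2.

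In the list of pyruvate entry and the tricarboxylic acid cycle all 28 genes were tested and none was called. There 21 had positive and 7 negative fitted differences, with a median of 0.32 against 0.03 over all genes tested, and 8 of the 28 lay higher in TAC without overlap, beside 12.3% of all genes. The median was 0.39 with replicates 1 and 2 only and 0.10 in replicate 3, against -0.05 and 0.04 over all genes. The 3 with the smallest p were Sdhd, a subunit of succinate dehydrogenase (1.55, SE 0.50), Mdh2, mitochondrial malate dehydrogenase (0.73, SE 0.25) and Cs, citrate synthase (0.85, SE 0.30). Cs was at 24.1, 24.3 and 33.7 in MSC and at 45.3, 42.8 and 63.0 in TAC, without overlap. Of the 9 genes of the pentose phosphate pathway, 6 had positive differences. The median was 0.66, against 0.03 over all genes tested (0.44 with replicates 1 and 2 only and 0.74 in replicate 3). Of the 9, 4 lay higher in TAC without overlap, beside 12.3% of all genes, and none was called. Prps2, which makes phosphoribosyl pyrophosphate for nucleotides, had the smallest p (0.91, SE 0.33). The proliferation genes had higher fitted values in TAC too, and the part of dividing cells in both lists was not tested.

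Of the HIF machinery, 12 of 14 genes were tested and Hif3a alone was called. The wider list of hypoxia response genes had 34 of 38 genes tested, of which 13 had positive and 21 negative fitted differences, with a median of -0.21. The median was -0.12 with replicates 1 and 2 only and -0.06 in replicate 3. At an unadjusted p under 0.05 there were 4 higher in TAC and 7 higher in MSC. That is 11.8% and 20.6% of the genes tested in the list, beside 5.42% and 6.43% of all genes tested. The vascular marker sums were higher in MSC too, and the part of vascular cells in this list was not tested. Stc2, which encodes stanniocalcin 2, a secreted glycoprotein, was the only call in the list. It was at 29.8, 29.8 and 42.8 in MSC and at 5.30, 6.07 and 5.88 in TAC, with every MSC library far above every TAC library (-2.36, SE 0.34, limma adjusted p = 0.045). With 1 library left out the Stc2 difference was between -2.45 and -2.19. The call was lost when any 1 library other than MSC replicate 3 was left out, with adjusted p from 0.084 to 0.27, under median-ratio scaling (0.12) and without a filter on low values (0.057).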

How the data were processed

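RNA from laser-captured MSC and TAC regions was sequenced as single-end reads, 3 samples per group. Per the labels and the methods of the study, reads were processed with CASAVA 1.8.2, trimmed, aligned to mm10 with TopHat2 2.0.8 and analysed in Partek. The methods name RPKM. The signal values that the authors deposited behaved instead as an estimated read number plus 1, divided by a size factor for each library. The third quartile of the listed genes was 15.6 in every library. Estimated reads were obtained by dividing each value by the library minimum and subtracting 1. Of low values (under 50 times the lowest), 75.6% to 94.7% per library were whole within 0.02, so no count model was used. The design had been written for RPKM, and its test on log values was kept. The precision is limited by 3 samples per group and, for low genes, by counting error, which the limits for a count of 0 cover alone.

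The test was limma 3.58.1 in R 4.3.3, with a variance trend, on log2(value + 1) of 15391 genes whose mean reached 1, two-sided. Adding 1 makes differences of low genes smaller. The members and lists were chosen with earlier results of these data known. All 36 members are named. Of 5 pathway lists the called genes are named or, failing those, the 3 with the smallest unadjusted p under 0.05, and of the marker lists used the genes with the highest mean. The fit was tested on simulated data, which had no shift of replicate 3 and so do not cover that feature of these libraries. Replicates 1 and 2 of a group differed by more than sampling noise (median chi-square 9.90 times the expected value in MSC and 7.69 times in TAC). This check cannot tell separate animals from separate preparations of the same material. The samples were kept separate as the labels number them. Across genes, the deviations of same-numbered samples from their group means correlated at 0.477, 0.465 and 0.517. By this check the numbers, taken from the labels, were treated as pairs in the differences within numbers and in the replicate block. The main fit did not use them, so the shift of replicate 3 stayed in its spread. The cross pairs of replicates 1 and 2 correlated as highly (MSC replicate 1 with TAC replicate 2 at 0.462, MSC replicate 2 with TAC replicate 1 at 0.480), so the shared deviation was mainly that of replicate 3 against the others. Lengths, overlaps and shared 75-base stretches came from GENCODE release M21, promoter sequences from RefSeq (GRCm38.p6). Epas1 had no window there. Alternatives were another pseudocount, other filters, median-ratio and quantile scaling, a replicate block, a batch term for replicate 3, replicates 1 and 2 only, and each sample left out. Adding copies and the interaction of group with replicate 3 against replicates 1 and 2 were chosen after seeing the data.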

Additional observations from a re-analysis of the deposited data

How the results depend on the processing

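Counts are given in the order all genes called (65 as reported), members called (1), members at an unadjusted p under 0.05 (4) and pathway list genes called (2). With replicate 3 as a batch term they were 1814, 10, 17 and 10, and with replicates 1 and 2 only 6796, 22, 24 and 48. The batch term called 10 of 33 members, beside 1814 of 15391 genes. These were all 6 genes of lower glycolysis, Aldoa, Ldha, Slc16a1 and Epas1. With the replicate block the counts were 229, 2, 13 and 2, the added member being Pgam1, and the block changed no other call among the 33 members, Hif3a and Stc2. Median-ratio scaling gave 23, 0, 4 and 1, quantile normalization gave 114 genes in all, and dropping the filter left 1 pathway list gene. With 1 sample left out the counts ran from 0 to 292, from 0 to 1, from 3 to 10 and from 0 to 3. All 4 fits without a replicate 1 or 2 called 0 genes, with 1028 to 1367 at an unadjusted p under 0.05, whereas the fits without MSC replicate 3 and without TAC replicate 3 called 292 and 36. The cause was not tested.

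Signs turned as follows. With replicates 1 and 2 only, Slc2a1 was -0.72, Pfkl -0.072, Pdk2 -0.54, Pdk4 -0.11 and Hif1a 0.39. Pdk2 was also -0.026 with a pseudocount of 5, -0.022 under median-ratio scaling and -0.10 under quantile normalization, which put Pfkm at 0.0058. With 1 sample left out, differences ran from -0.36 to 0.85 for Slc2a1, -0.0018 to 0.87 for Hk1, -0.43 to 0.14 for Gpi1, -0.028 to 0.19 for Pfkl, -0.31 to 0.58 for Tpi1, -0.93 to 0.15 for Slc16a3, -0.57 to 0.43 for Pdk2, -0.60 to 0.12 for Hif1a, -0.035 to 0.30 for Bnip3, -0.40 to 0.089 for Ddit4. The voom fit was not run because whole reads could not be recovered. No scaling moved the median of all genes by over 0.1. Hk2, Aldoc, Egln3 and Ankrd37 had no read in MSC replicate 3, and such values bound these genes in that library only from above, for counting error alone.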
